A study of Mus musculus with 4 samples.

Results

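The genes followed were the D-type cyclins Ccnd1, Ccnd2 and Ccnd3, their partner kinases Cdk4 and Cdk6, and 5 inhibitors of cyclin-dependent kinases. They were measured in sorted B220+CD43+ marrow cells of Hdac3KO and WT mice. The 10 genes were taken by symbol from the deposited gene table, and all 10 were found among its 23275 entries and had been tested by the authors. RNA came from B220+CD43+ cells sorted from bone marrow of C57BL/6 mice at 8 weeks of age. The 2 Hdac3KO libraries came from Hdac3F/-Mb1cre+/- mice, which carry 1 conditional and 1 null allele of Hdac3 and lose the conditional allele where the B-lineage recombinase Mb1cre is active. The 2 WT libraries came from Hdac3+/+Mb1cre+/- mice, so the recombinase was present in both groups. Each library pooled cells of 2 mice, and the study's title asks about the deacetylase activity of Hdac3 in V(D)J recombination and B-cell development.

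D-type cyclins are the regulatory subunits that bind Cdk4 or Cdk6 early in the cell cycle. The paired kinases phosphorylate the retinoblastoma protein and its relatives, which frees E2F factors to switch on genes of DNA synthesis. Inhibitors of the INK4 family bind Cdk4 and Cdk6 themselves, whereas those of the CIP/KIP family bind cyclin and kinase together and also act on Cdk2. In developing B cells these genes are known to mediate the switch between proliferation of progenitors and the resting state in which the antigen receptor loci are rearranged. In mouse marrow Ccnd3 is known to be needed for the expansion of B-cell progenitors.

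Levels are given in FPKM as the authors deposited them, a fragment count scaled to transcript length and library size, so that genes can be compared per length. The table has 1 value for each genotype, made from its 2 libraries, so no spread between libraries is shown and the depth is unknown. A gene was called at the authors' q-value under 0.05, and its log2 fold change is Hdac3KO over WT. The 95% intervals are those of this log2 fold change, with a standard error taken from the deposited test statistic and a normal approximation. Hdac3 itself was 22.0 FPKM in Hdac3KO cells and 46.8 FPKM in WT cells, and was called with q = 0.0016 in the authors' deposited table. Its transcript thus stood at 47.1% of the WT level in Hdac3KO cells and was not absent. The sorted cells carried B-lineage transcripts in both groups, and none of the 14 B-lineage markers was at 0. This does not show that the sorted cells were pure. Neutrophil and myeloid markers summed to 2720 FPKM in Hdac3KO cells and 10936 FPKM in WT cells, against 5121 and 4017 FPKM for the B-lineage markers.

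Of the 10 genes, 1 rose and 1 fell in Hdac3KO cells, and the other 8 did not pass the test. Over all 12683 tested entries 6.95% were called, 2.81% as higher and 4.14% as lower. The gene that rose was Cdkn1a, which encodes the CIP/KIP inhibitor p21, and the gene that fell was Cdkn2c, which encodes the INK4 inhibitor p18. The median log2 fold change was -0.12 over the 10 genes and 0.03 over the 12643 tested entries with a value above 0 in both genotypes. Of the 10 genes, 4 had a positive and 6 a negative log2 fold change. In such bulk samples fewer cells of a type and less RNA per cell cannot be told apart.

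**Figure D1:**
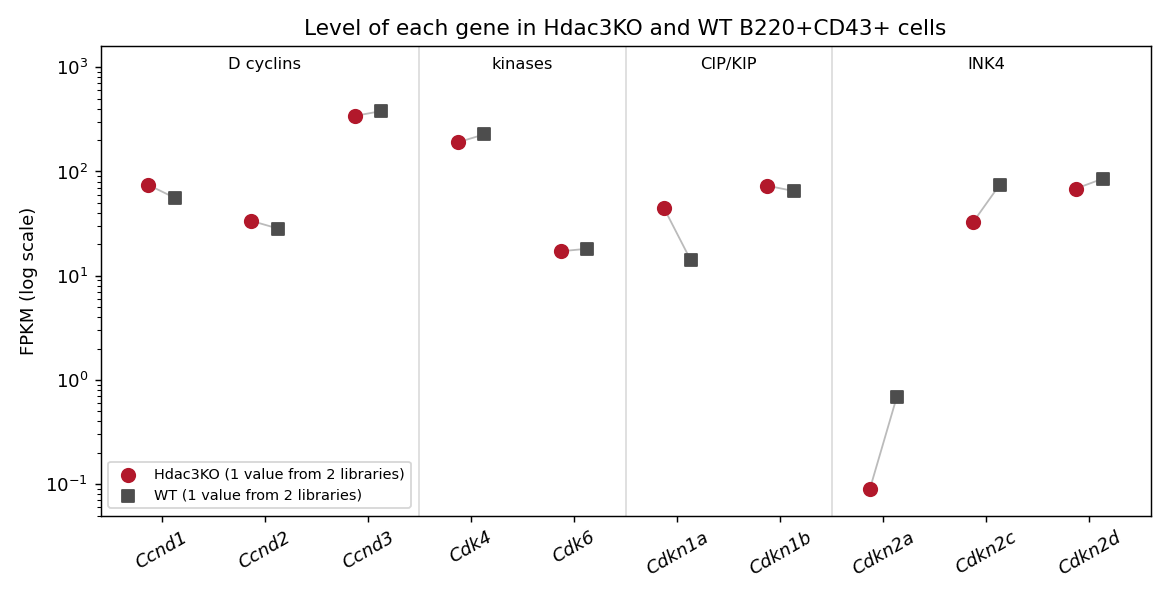
FPKM of each of the 10 genes on a log axis, with a red circle for Hdac3KO and a grey square for WT, each 1 value from 2 libraries. Cdkn1a stands higher and Cdkn2c lower in Hdac3KO cells, and Cdkn2a lies below 1 FPKM in both groups.

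Both called genes are annotated with 2 transcription starts each in RefSeq's promoter table of the GRCm38.p6 assembly, the same assembly as the mm10 build of the deposited table. The 250 bases before 3 of these starts are shown, 5′ to 3′ on the gene's strand, because they belong to the genes that changed. Capitals mark a pair of CATG cores spaced as in a p53 response element (CATGNNNNNNCATG) or a GC box (GGGCGG), the motif bound by Sp1-type factors.

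Cdkn1a upstream start, chr17:29090729-29090978, plus strand: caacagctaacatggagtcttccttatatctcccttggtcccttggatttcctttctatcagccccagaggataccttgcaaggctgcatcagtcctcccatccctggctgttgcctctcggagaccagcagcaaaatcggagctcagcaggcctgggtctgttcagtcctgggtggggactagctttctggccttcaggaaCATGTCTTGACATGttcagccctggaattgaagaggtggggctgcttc

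Cdkn1a inner start, chr17:29093519-29093768, plus strand: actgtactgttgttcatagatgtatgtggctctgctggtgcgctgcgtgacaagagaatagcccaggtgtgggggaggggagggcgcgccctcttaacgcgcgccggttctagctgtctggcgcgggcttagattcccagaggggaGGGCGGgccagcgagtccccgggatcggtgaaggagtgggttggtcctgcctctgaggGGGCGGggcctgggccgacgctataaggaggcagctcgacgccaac

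Cdkn2c inner start, chr4:109665373-109665622, minus strand: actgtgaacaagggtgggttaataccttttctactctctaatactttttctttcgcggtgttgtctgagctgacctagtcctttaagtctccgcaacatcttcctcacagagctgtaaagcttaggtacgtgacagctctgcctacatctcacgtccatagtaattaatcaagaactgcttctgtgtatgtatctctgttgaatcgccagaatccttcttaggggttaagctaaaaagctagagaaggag

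The window before the upstream start of Cdkn1a held the paired CATG cores, beginning 48 bases before the annotated start. This pattern was found in 1 of the 12 windows of these genes and in 0.490% of all 32851 windows of the same length, searched on both strands. The window before the inner start of Cdkn1a held 2 GC boxes and lay within an annotated exon of another gene, and the window before the inner start of Cdkn2c held none. The window before the outer start of Cdkn2c, whose sequence is not printed because it lies in an annotated UTR of the gene, held 3 GC boxes and had 77.2% G and C. GC boxes were present in 8 of the 12 windows and in 32.7% of all windows. These shares are not matched for G and C content, which was above the median of all windows in 11 of the 12. In the Cdkn2d window 198 bases lay in annotated exons of Cdkn2d itself. The inner Cdkn2c window had 42.8% G and C, the lowest of the 12 and the only 1 under the median of 52.4% over all windows. Cdkn2c's other start lay 1384 bases outside the locus given in the deposited table, whose 5′ end is the inner start. Whether transcripts from the outer start entered the deposited Cdkn2c value was not tested.

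E2F motifs were searched as TTTCCCGC, TTTGGCGC, TTTCGCGC and TTTGCCGC, which together were present in 1.86% of all windows. Among the windows of these genes 1 held such a motif, before the outer start of Cdkn2a. The E-box CACGTG, a motif bound by Myc, was found 4 times before the start of Cdk4 and 1 time before that of Cdk6, and 6.02% of all windows held it at least 1 time. The FoxO motif TGTTTAC was found in 1 window of Ccnd3 and in 3.17% of all windows. The CCAAT box CCAAT was in 3 of the 12 windows and 33.8% of all, and the TATA box TATAAA in 1 and 12.4%. Windows were matched for 8 of the 10 genes, all but Ccnd1 and Ccnd2.

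Among the D-type cyclins, Ccnd3 was by far the most abundant in both groups and no member passed the test. Ccnd3 was 341 FPKM in Hdac3KO cells and 380 FPKM in WT cells, a log2 difference of -0.16 with an interval of -0.94 to 0.63 (q = 0.877 in the authors' deposited table). It was also the most abundant of all 10 genes, above 98.3% of tested entries in Hdac3KO cells and 98.4% in WT cells. Ccnd1, which is scarce in many blood cells, was 74.2 FPKM in Hdac3KO cells and 55.6 FPKM in WT cells. Its log2 difference was 0.42, with an interval of -0.15 to 0.98, and in the authors' deposited table it had p = 0.0388 before and q = 0.251 after adjustment. Ccnd2, the cyclin induced by growth factor and antigen receptor signals in B cells, was 33.5 FPKM in Hdac3KO cells and 28.3 FPKM in WT cells. Its log2 difference was 0.25, with an interval of -0.27 to 0.77 (q = 0.596 in the authors' deposited table).

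The 3 cyclins together came to 448 FPKM in Hdac3KO cells and 463 FPKM in WT cells. Ccnd3 made up 76.0% of this sum in Hdac3KO cells and 81.9% in WT cells. Ccnd1 made up 16.5% in Hdac3KO cells and 12.0% in WT cells, and Ccnd2 made up 7.48% in Hdac3KO cells and 6.10% in WT cells. The value of the major cyclin was lower and the values of the minor cyclins were higher in Hdac3KO cells, none of them past the test. The difference between the log2 fold changes of Ccnd1 and Ccnd3 was 0.57, with an interval of -0.39 to 1.54 if the genes are taken to vary independently. For Ccnd2 and Ccnd3 it was 0.40, with an interval of -0.54 to 1.34, so a shift in make-up was not resolved at this precision.

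Exons of Ccnd1 overlap 1100 bases of the opposite-strand gene LTO1, 23.4% of the annotated exonic bases of Ccnd1. Ccnd3 shares its deposited locus with Bysl, and Ccnd2 with 9330179D12Rik. The sources used here do not say whether strand was kept, so reads of such pairs may be mixed. Bysl was 39.1 FPKM in Hdac3KO cells and 48.5 FPKM in WT cells, and 9330179D12Rik was under 0.5 FPKM in both.

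The kinases showed a similar division into a major and a minor member. Cdk4 was 190 FPKM in Hdac3KO cells and 227 FPKM in WT cells, the second level of the 10 genes in both groups. Its log2 difference was -0.26, with an interval of -0.77 to 0.25 (q = 0.59 in the authors' deposited table). Cdk6, which takes a larger part in blood progenitors than in most other tissues, was 17.1 FPKM in Hdac3KO cells and 18.1 FPKM in WT cells. Its log2 difference was -0.08, with an interval of -0.57 to 0.40 (q = 0.921 in the authors' deposited table). Cdk4 exceeded Cdk6 by 11.1 times in Hdac3KO cells and 12.5 times in WT cells. The summed level of cyclins was 2.16 times that of the kinases in Hdac3KO cells and 1.89 times in WT cells. Exons of Cdk4 overlap 641 bases of the opposite-strand gene Tspan31, 19.7% of those of Cdk4.

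**Figure D2:**
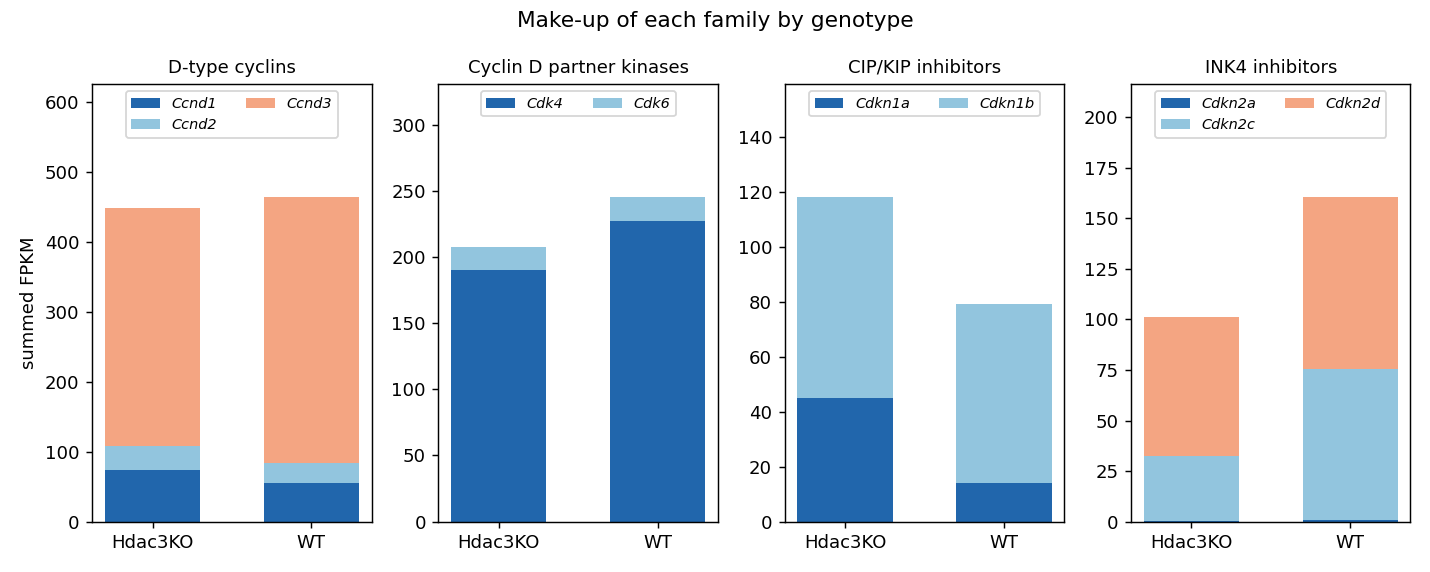
Summed FPKM of each family, with Hdac3KO left of WT and 1 colour for each gene, on linear axes that start at 0 and differ between families. The D cyclin bars, at 448 and 463 FPKM, are nearly level, the CIP/KIP bar is taller in Hdac3KO cells through Cdkn1a, and the INK4 bar is shorter in them mainly through Cdkn2c.

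Of the CIP/KIP inhibitors, Cdkn1a passed the test. The p21 protein that it encodes halts the cycle after DNA damage as a target of p53, and it can also be induced without p53. Cdkn1a was 44.9 FPKM in Hdac3KO cells and 14.2 FPKM in WT cells, which is 30.7 FPKM higher. It rose 3.16-fold, with an interval of 2.11 to 4.75, and had q = 0.0016 in the authors' deposited table. That is the smallest q there, and it is shared by the 396 tested entries at the lowest p. Ordered by fold increase it was number 84 of the 12683 tested entries. Its place among tested levels was percentile 82.4 in Hdac3KO cells and percentile 53.0 in WT cells. The annotation places it on chromosome 17 of mm10, from position 29090986 to 29100722 in the deposited table, and 7.68% of its exonic bases overlap the opposite-strand entry AC167363.2.

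Cdkn1b encodes p27, the inhibitor that accumulates in resting cells and is controlled largely through protein degradation. It was 73.1 FPKM in Hdac3KO cells and 65.0 FPKM in WT cells, with a log2 difference of 0.17 and an interval of -0.30 to 0.64 (q = 0.767 in the authors' deposited table). The log2 fold change of Cdkn1a exceeded that of Cdkn1b by 1.49, with an interval of 0.74 to 2.24 if the genes vary independently. This pair was chosen after the values were seen, with Cdkn1a already called, so the interval is no separate test. The level of Cdkn1b was 1.63 times that of Cdkn1a in Hdac3KO cells and 4.57 times in WT cells. Cdkn1a made up 38.1% of the summed CIP/KIP level in Hdac3KO cells and 17.9% in WT cells, while the sum was 118 FPKM in Hdac3KO cells and 79.2 FPKM in WT cells.

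The INK4 inhibitors all had negative log2 fold changes, and Cdkn2c was the member that passed the test. Its product p18 is known to restrain the division of lymphocytes. Cdkn2c was 32.5 FPKM in Hdac3KO cells and 74.6 FPKM in WT cells, a difference of -42.1 FPKM. It fell to 43.5% of the WT level, with a log2 fold change of -1.20, an interval of -1.64 to -0.76, and q = 0.0016 in the authors' deposited table. Ordered by fold decrease it was number 382 of the 12683 tested entries, and its level stood at percentile 75.5 in Hdac3KO cells and 89.7 in WT cells.

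Cdkn2d encodes p19, an INK4 relative whose transcript is known to vary through the cell cycle. It was 68.5 FPKM in Hdac3KO cells and 85.2 FPKM in WT cells, with a log2 difference of -0.31 and an interval of -0.79 to 0.16 (q = 0.431 in the authors' deposited table). The log2 fold change of Cdkn2c lay below that of Cdkn2d, the difference being -0.89 with an interval of -1.53 to -0.24 if the genes vary independently. With Cdkn2c already called when the pair was chosen, this interval is no separate test either. The level of Cdkn2d was 2.11 times that of Cdkn2c in Hdac3KO cells and 1.14 times in WT cells.

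Cdkn2a, whose alternative first exons encode p16 and the p53 activator Arf, was barely measured. It was 0.0899 FPKM in Hdac3KO cells and 0.68 FPKM in WT cells, at percentiles 0.371 and 7.06 of tested levels. Its log2 fold change of -2.92 was the largest in size of the 10 genes and the least certain, with an interval of -5.66 to -0.17. The authors' deposited table gives p = 0.0214 before and q = 0.175 after adjustment, so it was not called. With a pseudocount of 1 FPKM its log2 difference was -0.62. The deposited locus covers both annotated starts, so p16 and Arf transcripts are not told apart.

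The summed INK4 level was 101 FPKM in Hdac3KO cells and 160 FPKM in WT cells. Cdkn2c made up 32.1% of this sum in Hdac3KO cells and 46.5% in WT cells. The 5 inhibitors of both families together came to 219 FPKM in Hdac3KO cells and 240 FPKM in WT cells. Per FPKM of D cyclin there were 0.489 FPKM of inhibitor in Hdac3KO cells and 0.517 FPKM in WT cells. Within the sum Cdkn1a accounted for 20.5% in Hdac3KO cells and 5.93% in WT cells, and Cdkn2c for 14.8% in Hdac3KO cells and 31.1% in WT cells. The ratio of CIP/KIP to INK4 level was 1.17 in Hdac3KO cells and 0.493 in WT cells. No test was run on these sums, which rest on 1 value per genotype.

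**Figure D3:**
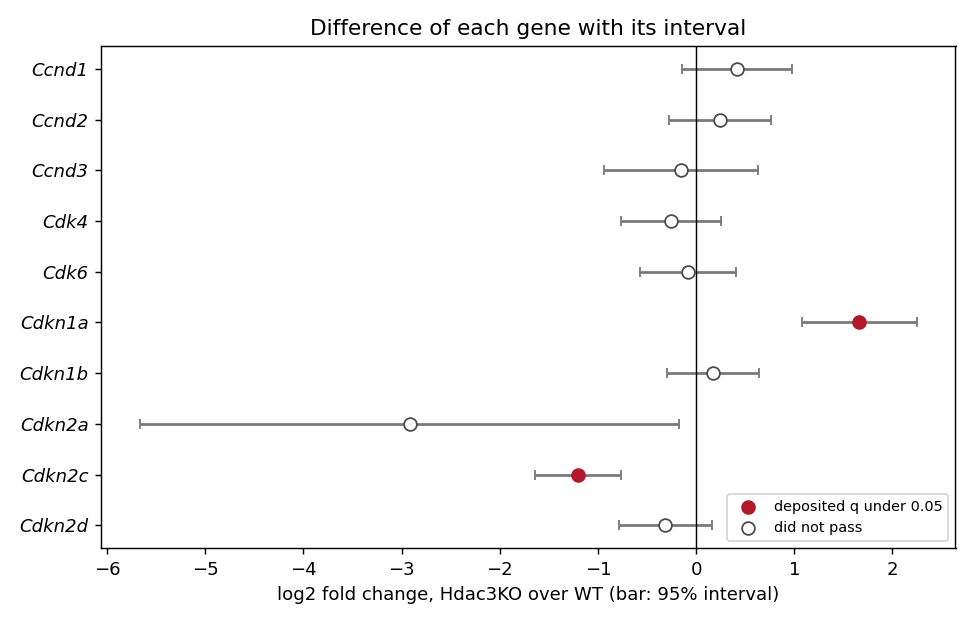
Log2 fold change, Hdac3KO over WT, of each of the 10 genes, with bars for the 95% interval from the deposited test statistic. Filled points mark the 2 genes with q under 0.05, Cdkn1a at 1.66 and Cdkn2c at -1.20, and the interval of Cdkn2a is the widest.

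Ccnd3 was first, Cdk4 second and Cdkn2a last in the order of levels in both groups, Ccnd2 also kept its place, and the other 6 genes stood in different places. Below Cdk4 came Ccnd1, Cdkn1b, Cdkn2d, Cdkn1a, Ccnd2, Cdkn2c and Cdk6 in Hdac3KO cells. In WT cells the order below Cdk4 was Cdkn2d, Cdkn2c, Cdkn1b, Ccnd1, Ccnd2, Cdk6 and Cdkn1a. Cdkn2c thus stood in place 8 in Hdac3KO cells and in place 4 in WT cells, and Cdkn1a in place 6 in Hdac3KO cells and in place 9 in WT cells. Without values per library it was not tested which neighbours in these orders differ.

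For 7 of the 10 genes the interval stayed within 1 log2 unit of no change in either direction. The exceptions were Cdkn1a, Cdkn2c and Cdkn2a. A difference of up to about that size is therefore not excluded by these intervals for several genes that did not pass, such as Ccnd1, with an upper bound of 0.98.

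**Figure D4:**
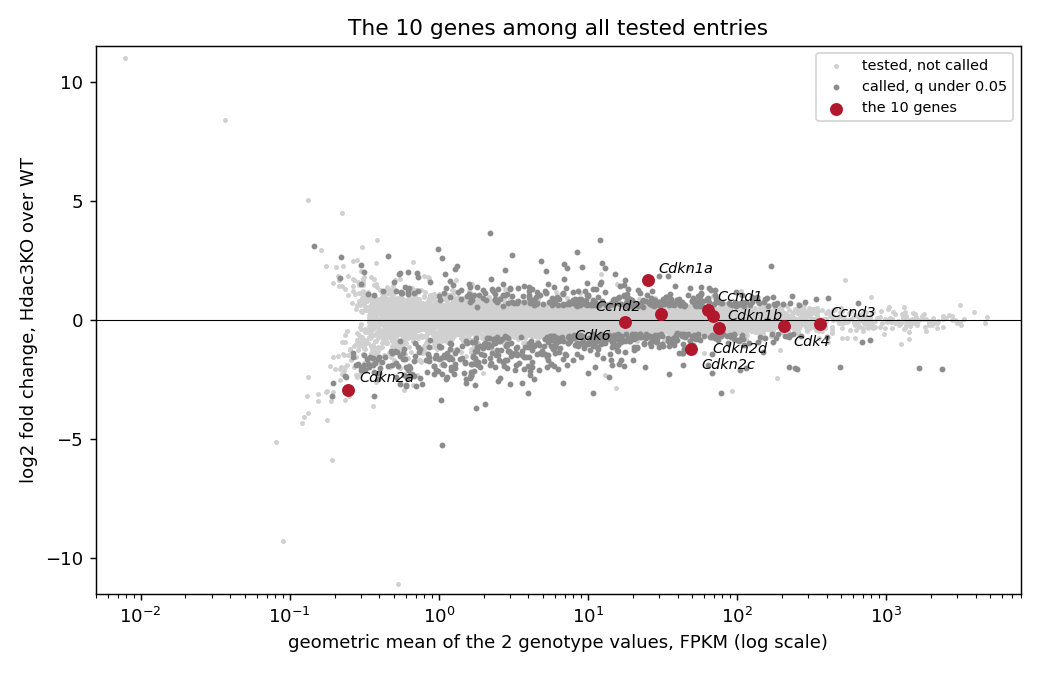
Log2 fold change, Hdac3KO over WT, against the geometric mean of both genotype values on a log axis, for the 12643 tested entries with values above 0. The 10 genes are red, with Cdkn1a and Cdkn2c among the called entries in dark grey and Cdkn2a at the low, scattered end.

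The tested entries nearest to Cdkn1a in the plane of both log2 levels were Snord89 and Socs2, at distances of 0.11 and 0.36 log2 units among 12628 entries. Snord89, a small nucleolar RNA, had 42.7 FPKM in Hdac3KO cells and 15.0 FPKM in WT cells and was not called. Socs2, an inhibitor of cytokine signalling, had 41.3 FPKM in Hdac3KO cells and 17.9 FPKM in WT cells and was called. Nearest to Cdkn2c were Arl5a and Cdkn3, at distances of 0.14 and 0.21, and both were called. Such nearness rests on 1 value per genotype and describes only these levels.

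Other inhibitor genes outside the 10 were led by Cdkn3, a phosphatase that removes the activating phosphate from Cdk2. Cdkn3 was 28.9 FPKM in Hdac3KO cells and 68.3 FPKM in WT cells, and fell with a log2 fold change of -1.24 (q = 0.0016 in the authors' deposited table). Cdkn1c, the CIP/KIP gene for p57, was 0.551 FPKM in Hdac3KO cells and 0.487 FPKM in WT cells and did not pass. Cdkn2b, the gene beside Cdkn2a that encodes p15, was under 0.05 FPKM in both groups and was not tested by the authors.

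The lists that follow can be read against 6.95% of all tested entries called and a median log2 fold change of 0.03. That share holds for calls at q under 0.05 only. The share of all tested entries with an unadjusted p under 0.05 was not computed, so counts at that threshold cannot be read as an excess. Downstream of the cyclin D kinases, the pocket proteins and E2F factors gave 0 called genes of 13 tested by the authors' Cuffdiff q-value, and 4 had an unadjusted p under 0.05. Their median log2 fold change was -0.33, and 10 of the 13 were negative. Tfdp1, a partner with which many E2F factors bind DNA, was 120 FPKM in Hdac3KO cells and 131 FPKM in WT cells. E2f4, a factor that represses with pocket proteins in resting cells, was 64.5 FPKM in Hdac3KO cells and 67.3 FPKM in WT cells. Rb1, the retinoblastoma gene, was 28.9 FPKM in Hdac3KO cells and 41.4 FPKM in WT cells without passing the test. Among genes of DNA synthesis that respond to E2F, 5 of 25 fell, and all 25 log2 fold changes were negative, with a median of -0.41. Rfc3, a clamp loader subunit, was 38.8 FPKM in Hdac3KO cells and 63.9 FPKM in WT cells, a log2 fold change of -0.72. Gmnn, the inhibitor of origin relicensing, was 53.7 FPKM in Hdac3KO cells and 87.7 FPKM in WT cells. The other genes of this list that fell were Rrm2, Mcm5 and Pola1. These cell-cycle lists were chosen with their direction in these data known, so their counts are a description.

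In the cyclin E, cyclin A and Cdk2 arm 2 of 10 tested genes fell, and all 10 log2 fold changes were negative, with a median of -0.30. Ccna2, the cyclin of DNA synthesis and of entry into mitosis, was 140 FPKM in Hdac3KO cells and 236 FPKM in WT cells, a log2 fold change of -0.75. Cdc25c, a phosphatase that activates Cdk1, was 10.4 FPKM in Hdac3KO cells and 17.9 FPKM in WT cells. Ccne1, which belongs to this list and to the E2F-responsive list, was 14.2 FPKM in Hdac3KO cells and 19.9 FPKM in WT cells and did not pass. Cdk2 was 57.0 FPKM in Hdac3KO cells and 63.3 FPKM in WT cells and did not pass either. The 3 genes of the CDK-activating kinase gave 0 calls by the authors' Cuffdiff q-value and 0 at an unadjusted p under 0.05, with a median of -0.13. The most abundant of them was the cyclin gene Ccnh, at 39.8 FPKM in Hdac3KO cells and 47.8 FPKM in WT cells, followed by Mnat1 at 10.2 FPKM in Hdac3KO cells and 11.2 FPKM in WT cells.

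Of 16 genes for the degradation of cyclins and inhibitors, 4 fell and the other 12 did not pass, with a median of -0.11. Cks1b, which helps the Skp2 ligase to recognise p27, was 113 FPKM in Hdac3KO cells and 184 FPKM in WT cells, a log2 fold change of -0.70. Its relative Cks2 was 183 FPKM in Hdac3KO cells and 286 FPKM in WT cells. The other members that fell were Cdc20, the mitotic activator of the anaphase-promoting complex, and Dtl, the substrate receptor through which p21 is degraded in S phase. Dtl was 24.0 FPKM in Hdac3KO cells and 37.0 FPKM in WT cells. Skp2 itself was 17.6 FPKM in Hdac3KO cells and 20.5 FPKM in WT cells and did not pass. The 20 tested cyclins and kinases outside the G1 pathway gave 0 calls by the authors' Cuffdiff q-value and 3 at an unadjusted p under 0.05, with a median of 0.20. Their most abundant members, Ccni and Ccnl1, were 118 and 113 FPKM in Hdac3KO cells and 126 and 87.6 FPKM in WT cells. By an adjusted normal p of the deposited test statistic, under which Cdkn1a and Cdkn2c remained called, the degradation list had 2 calls, the E2F-responsive list 1 and the cyclin E, cyclin A and Cdk2 arm 0.

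**Figure D5:**
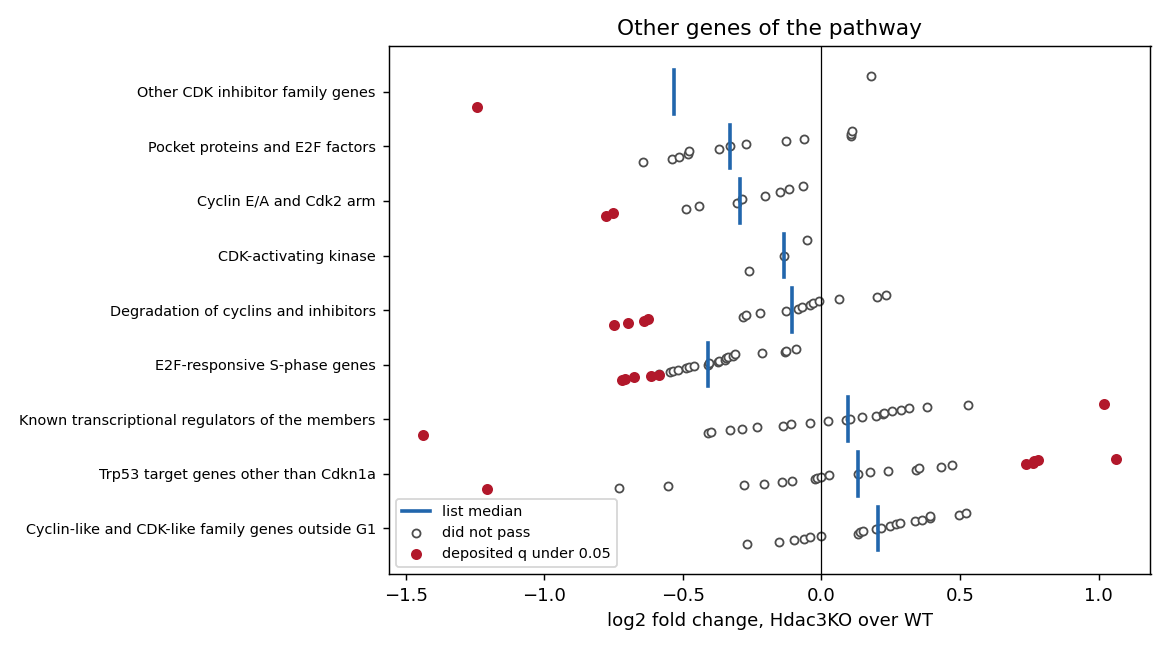
Log2 fold change, Hdac3KO over WT, of every tested gene in 9 lists around the pathway, with red points for q under 0.05 and a blue bar for the list median. The E2F-responsive genes all lie left of 0. Of the 23 p53 target genes, 5 lie to the right as called and 1, Fas, to the left as called, and 10 are negative.

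Upstream, 22 genes known to regulate these members in some setting gave 1 higher and 1 lower gene, with a median log2 fold change of 0.10. Foxo1, a forkhead factor that activates Cdkn1b and other inhibitor genes, was 77.6 FPKM in Hdac3KO cells and 38.3 FPKM in WT cells, and rose with a log2 fold change of 1.02. Klf4, an activator of Cdkn1a, was 2.78 FPKM in Hdac3KO cells and 7.53 FPKM in WT cells and fell. Trp53, the gene for p53, was 102 FPKM in Hdac3KO cells and 82.2 FPKM in WT cells without passing the test. Myc, which represses Cdkn1a and activates Ccnd2 and Cdk4, was 37.1 FPKM in Hdac3KO cells and 34.9 FPKM in WT cells, with an interval of -0.48 to 0.65 for its log2 difference. Bcl6, a repressor of Cdkn1a in germinal centre B cells, was 8.54 FPKM in Hdac3KO cells and 8.80 FPKM in WT cells.

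Beside Cdkn1a, 5 of 23 tested p53 target genes rose and 1 fell, with a median of 0.13. Bbc3, Sesn1, Trp53inp1, Btg2 and Ddit4 were the higher genes. Btg2, an antiproliferative gene, was 199 FPKM in Hdac3KO cells and 118 FPKM in WT cells, and Trp53inp1, a stress-induced cofactor of p53, was 166 FPKM in Hdac3KO cells and 97.4 FPKM in WT cells. Fas, the death receptor gene, was 1.20 FPKM in Hdac3KO cells and 2.76 FPKM in WT cells and fell. Mdm2, the feedback inhibitor of p53, was 38.6 FPKM in Hdac3KO cells and 39.1 FPKM in WT cells, with an interval of -0.52 to 0.49. Ccng1, another p53 target, was 41.7 FPKM in both groups. By the adjusted normal p, 0 of the 23 genes were called, and 8 had an unadjusted deposited p under 0.05.

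Transcripts of other cell types moved between the same groups. Of 17 tested neutrophil and myeloid markers 12 fell and 1 rose, and their summed level was 2720 FPKM in Hdac3KO cells and 10936 FPKM in WT cells. All called markers of this list shared q = 0.0016 in the authors' deposited table. Those with the largest fold changes were S100a8, S100a9, Camp, Lyz2 and Ltf, which fell, and Cd14, which rose. Plasmacytoid dendritic cell markers gave 0 calls of 12 by the authors' Cuffdiff q-value and 3 at an unadjusted p under 0.05, all 12 had positive log2 fold changes, and they summed to 4206 FPKM in Hdac3KO cells and 3277 FPKM in WT cells. By the mean of both groups the most abundant of them were Ly6d and Bst2, at 924 and 670 FPKM in Hdac3KO cells and 721 and 578 FPKM in WT cells. The T, NK and innate lymphoid markers summed to 574 FPKM in Hdac3KO cells and 501 FPKM in WT cells, with 2 of 14 higher, Tcf7 and Eomes. Erythroid markers summed to 32.6 FPKM in Hdac3KO cells and 63.2 FPKM in WT cells, with 1 of 6 lower, Car2. Most of this sum was Car2, at 26.3 FPKM in Hdac3KO cells and 54.4 FPKM in WT cells. Of the 6 tested erythroid markers, 2 had positive and 4 negative log2 fold changes. Plasma cell markers summed to 356 FPKM in Hdac3KO cells and 469 FPKM in WT cells, with 3 of 7 lower, Igj, Sdc1 and Derl3. Of these 7 markers, 4 had negative and 3 positive log2 fold changes. The positive ones, Irf4, Prdm1 and Xbp1, did not pass. B-lineage markers summed to 5121 FPKM in Hdac3KO cells and 4017 FPKM in WT cells, with 6 of 14 higher, which were Rag1, Dntt, Igll1, Vpreb1, Pax5 and Bst1, and no marker found in the table was at 0 in either group. The part of these cells in the values of Cdkn1a, Cdkn2c and the other members was not tested.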

How the data were processed

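RNA of 4 libraries, 2 per genotype, was measured from B220+CD43+ marrow cells, and samples were grouped by genotype in the labels. Trizol RNA was enriched for polyadenylated transcripts before Illumina library preparation, per the labels' protocols. Per the submitters' processing notes, Trimmomatic 0.32, TopHat2 2.0.11 and Cuffdiff 2.1.1 were used with mm10. The sources used here do not give their options, the annotation or the scaling of libraries.

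Per the file headers, the authors deposited 1 FPKM value per gene and genotype. The table also holds the authors' test statistic, a score, and the authors' p-value and q-value. In 396 tested entries the p-value stood at 5e-05, the lowest in the table, so calls with q = 0.0016 cannot be ranked by it. These p-values come from the authors' Cuffdiff fit to 2 libraries of pooled mice in each genotype. No source used here says how that fit estimated the spread. Depth is unknown, so no counting error is given.

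Fold changes were computed from FPKM. The standard error was the log2 fold change divided by the test statistic. The normal approximation gives larger p-values than the deposited ones for some genes and smaller ones for others. Snord89, for example, had a test statistic of 36.1 but a deposited Cuffdiff p of 0.45. Intervals from this approximation can therefore be too narrow as well as too wide. The code for call counting and intervals was tested on data simulated with normal errors from these same standard errors. Calls there used the adjusted normal p, so this does not test the deposited q-values or whether the intervals suit these data. The 10 genes, the gene lists and the tests were chosen with earlier results of these data known. Differences between pairs of genes and the motifs were chosen after the values were seen. Named genes were Hdac3, the 10 genes and the 2 entries nearest in level to each called member. Of each list, at most 6 called genes were named, by smallest q and then by largest fold change. Where none was called, the list's 2 most abundant genes were named. Genes outside this rule, such as Rb1, Cdk2, Ccne1, Skp2, Trp53, Myc, Bcl6, Mdm2 and Ccng1, were named after their values were seen. Positions follow the deposited table, counted from 1, exon overlaps follow GENCODE M21 and windows follow RefSeq. Software comprised Python 3.11.15 with matplotlib 3.10.9, statsmodels 0.14.6, scipy 1.17.1, pandas 2.3.3 and numpy 2.4.6.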

Additional observations from a re-analysis of the deposited data

How the results depend on the processing

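Cdkn1a stayed the higher and Cdkn2c the lower called gene under all 7 alternative call rules, and no other of the 10 genes was called under any of them. The rules were q under 0.01 or 0.1, a minimum of 1.5-fold or 2-fold, at least 1 FPKM in both genotypes, an adjusted normal p of the test statistic, and entries with a locus of their own, which leaves out Ccnd1, Ccnd2 and Ccnd3. All but the adjusted normal p reuse the deposited q, and the adjusted normal p uses the test statistic of the same fit. For Cdkn1a and Cdkn2c none of the 7 rules therefore adds separate support. The count over all tested entries was 534 at q under 0.01, 426 with at least 2-fold and 471 by the normal p, against 881 as reported. Directions of all 10 genes were kept with pseudocounts, centring on the median gene and scaling each genotype to the same summed FPKM. A pseudocount cannot reverse a direction, and centring moved each log2 difference by only 0.02. With scaling, the smallest difference, that of Cdk6, went from -0.08 to -0.04. Shifts of this size could not reverse any of the 10 genes, so these settings are no test of the directions. The summed log2 difference without the most abundant member was 0.36 for D cyclins, against -0.05 with it, 1.66 for CIP/KIP, against 0.58, and -1.21 for INK4, against -0.67. At q under 0.01 the called genes numbered 1 in the cyclin E, cyclin A and Cdk2 arm, 0 in the degradation list by Cuffdiff, where 4 had an unadjusted p under 0.05, 1 in the E2F-responsive list and 3 in the p53 list, the stricter threshold being the cause. By the adjusted normal p, an alternative chosen after seeing the data, these numbers were 0, 2, 1 and 0, and the cause was not tested. No paired analysis was possible because the table has 1 value per genotype and no value per library, and for the same reason no library could be left out.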
